A study of Mus musculus with 8 samples.

Results

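At embryonic day 15 (E15), olfactory bulb cells that carried the neurotensin reporter were compared with the bulb cells that did not, with 1 GFP-positive and 1 GFP-negative library. The members are the rows of the authors' gene table with at least 5 FPKM in the higher of these libraries, after 926 rows of microRNAs and small nucleolar RNAs (Mir, Snord, Snora) were left out. FPKM counts fragments relative to transcript length and library size, so levels can be set side by side between genes per length. Of 42084 rows, 10479 met the rule. The 3 rows just inside the minimum were Amigo1 (4.23 FPKM in GFP-positive and 5.01 FPKM in GFP-negative cells), Zfpm2 (3.83 and 5.01 FPKM) and Tmem129 (3.81 and 5.01 FPKM), and just outside lay Cwf19l2 (4.997 and 4.03 FPKM), Pnpla2 (3.20 and 4.997 FPKM) and Pdk3 (3.36 and 4.996 FPKM).

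Both populations came from embryonic mice of a mixed 129 x C57BL/6J background in which the Nts locus carries NTS-IRES-tauGFP, so cells that transcribe Nts also make green fluorescent protein (GFP) fused to tau. The allele was homozygous or heterozygous per the labels, and the GFP-negative cells carried it too. Papain was used to dissociate the bulbs, and cells were sorted by fluorescence. The sources used here give neither the number of embryos in each sort nor how many had 1 copy of the allele. The series holds 8 libraries, 1 for each population at E13, E15, E17 and the day of birth (P0), so nothing at E15 is replicated. Every E15 value below is a description without a p-value, and a gene is called higher or lower when log2((GFP-positive + 1)/(GFP-negative + 1)), here the log2 difference, reached 1 in size (2-fold).

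Mitral and tufted cells are the glutamatergic projection neurons of the olfactory bulb. They arise from radial glia of the embryonic bulb and send their axons to the olfactory cortex, whereas most local interneurons of the bulb are GABAergic and descend from progenitors that use Dlx homeobox genes. Neurotensin is a peptide that neurons cut from a larger precursor, store in dense-core granules and release beside their fast transmitter.

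The promoters of 4 genes whose levels set the populations apart are shown, each as the 250 bases before the RefSeq start on the mouse build GRCm38.p6, 5′ to 3′ on the gene's strand. Nts lies at chr10:102490419-102490668 (minus strand), Fblim1 at chr4:141606053-141606302 (minus strand), Gcg at chr2:62483654-62483903 (minus strand) and Hes5 at chr4:154960673-154960922 (plus strand). Capitals mark TGAGTCA, the core letters of an AP-1 site, in Nts and Fblim1, CAGATG, an E-box of the kind that neuronal bHLH factors can bind, in Gcg, and TGGGAA, core letters of RBPJ, the DNA-binding partner of Notch, in Hes5, where the first match reads TTCCCA because it lies on the other strand. The first 3 are genes with higher levels and the last is a Notch target with a lower level in GFP-positive cells.
Nts: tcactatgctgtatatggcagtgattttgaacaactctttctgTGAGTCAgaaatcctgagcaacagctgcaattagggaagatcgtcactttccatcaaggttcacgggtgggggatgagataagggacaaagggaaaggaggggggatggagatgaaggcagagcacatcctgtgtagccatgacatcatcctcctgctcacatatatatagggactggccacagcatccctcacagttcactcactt
Fblim1: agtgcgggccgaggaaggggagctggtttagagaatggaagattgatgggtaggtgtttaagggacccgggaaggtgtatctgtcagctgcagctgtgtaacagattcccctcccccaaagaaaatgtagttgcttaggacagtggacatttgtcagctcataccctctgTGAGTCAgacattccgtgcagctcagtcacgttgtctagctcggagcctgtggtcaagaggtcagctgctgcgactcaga
Gcg: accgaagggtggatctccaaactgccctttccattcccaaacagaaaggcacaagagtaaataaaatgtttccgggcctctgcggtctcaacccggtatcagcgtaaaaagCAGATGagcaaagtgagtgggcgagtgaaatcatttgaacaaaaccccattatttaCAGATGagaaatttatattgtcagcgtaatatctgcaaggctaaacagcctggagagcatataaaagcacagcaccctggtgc
Hes5: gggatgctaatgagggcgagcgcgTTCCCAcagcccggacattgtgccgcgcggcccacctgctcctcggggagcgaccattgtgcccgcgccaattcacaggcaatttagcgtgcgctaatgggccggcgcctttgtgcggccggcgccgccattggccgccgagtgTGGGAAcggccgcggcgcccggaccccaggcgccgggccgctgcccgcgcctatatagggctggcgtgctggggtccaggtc
The AP-1 letters began 207 bases before the start in Nts and 80 bases before it in Fblim1. The E-box letters began 139 and 83 bases before the start of Gcg, and the RBPJ letters 226 and 82 bases before that of Hes5. With both strands searched, 4.46% of the 32851 mouse promoters in the same RefSeq table held TGAGTCA, 14.4% held CAGATG and 21.6% held TGGGAA, and no match overlapped one of another motif in these 4 windows. Among the genes with a promoter, 24 of 165 at least 4-fold higher in GFP-positive cells held the E-box letters (14.5%), against 44 of 355 at least 4-fold lower (12.4%) and 708 of 6441 described genes (11.0%). The AP-1 letters were in 3 of the 165 higher (1.82%), 9 of the 355 lower (2.54%) and 3.17% of the described genes. The RBPJ letters were in 27.3%, 26.8% and 23.5% of the same groups, and the Gcg window also held 1 match to them, not in capitals. The 4 windows were chosen as ones that hold the marked letters, so their matches were given by the choice. The gene spans of Nts and Fblim1 stated below reach into their windows, so the distances hold for the RefSeq start only. A match describes the letters only.

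An implied scale of 8660000 reads in the GFP-positive and 8930000 reads in the GFP-negative library was read from low values of genes with 1 transcript. On it, 5 FPKM on a transcript of 2000 bases would stand for about 78.0 and 80.4 reads. Both steps shortened the transcript length by the same fixed number of bases, so these reads are fewer than the full length would give. This scale is relative, since an FPKM table holds no read totals. Over all 10479 rows the median log2 difference was -0.01, with quartiles of -0.53 and 0.50. At 2-fold, GFP-positive cells had 1314 rows higher (12.5%) and 1520 lower (14.5%), and at 4-fold 393 higher (3.75%) and 776 lower (7.41%). Of the rows, 112 were listed at 0 in the GFP-negative and 228 in the GFP-positive library, and of these 2 and 19 had a single ordinary gene name. Each of 36 gene lists of cell types and functions was followed through the table. Of their 750 genes, 432 were members, 281 lay under 5 FPKM in both libraries and 37 had no row of their own. The list counts below are to be read beside the 12.5% of all rows that were higher and the 14.5% that were lower at 2-fold.

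**Figure D1:**
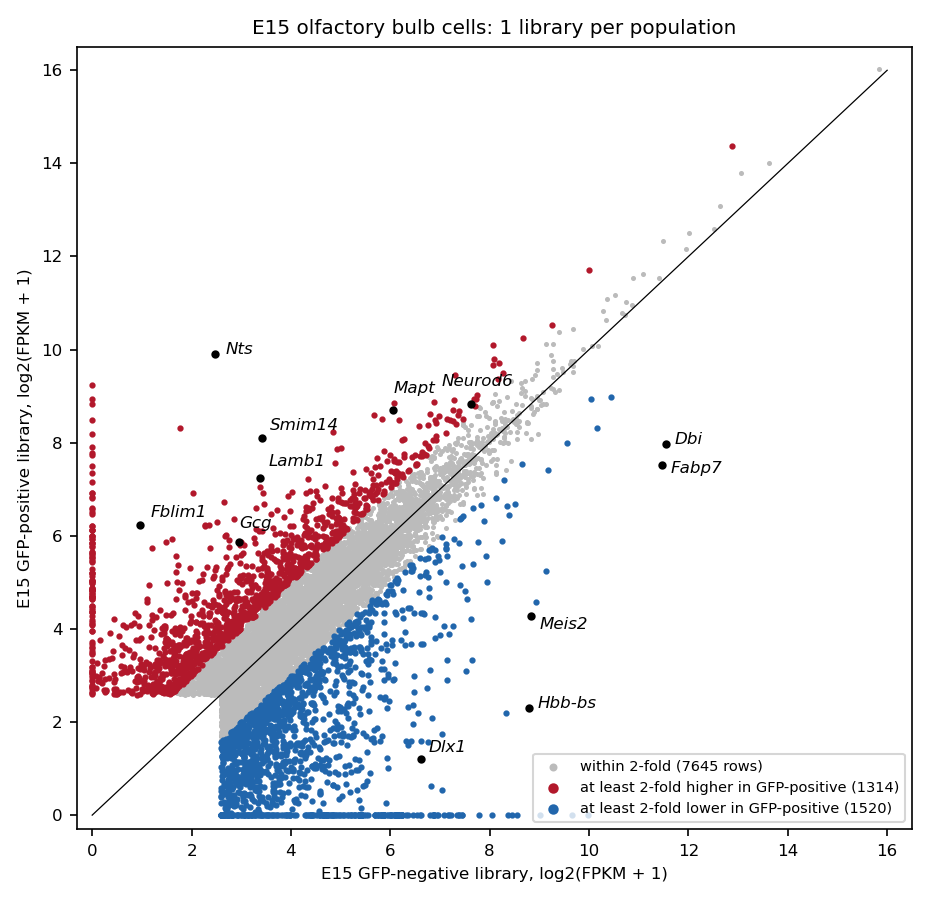
Level of each of the 10479 rows in the E15 GFP-negative library (x axis) and the E15 GFP-positive library (y axis), both as log2(FPKM + 1), 1 library per population. Red points are the 1314 rows at least 2-fold higher and blue points the 1520 rows at least 2-fold lower in GFP-positive cells. Nts lies farthest above the line of equal levels among the genes marked, and Dlx1 and Hbb-bs lie far below it.

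The reporter gene Nts and the peptide genes Gcg and Tac1 had higher levels in GFP-positive cells. Nts (chromosome 10, 102481756 to 102490486, minus strand) had 955 FPKM in GFP-positive and 4.54 FPKM in GFP-negative cells, a log2 difference of 7.43 and the largest of any row with a single ordinary gene name. The sort selected on the reporter of this locus, so this value checks the labels and is no finding about the cells. Mapt, which encodes tau, was at 416 and 65.7 FPKM (log2 difference 2.64). The reporter transcript encodes tau as well, so reporter and Mapt reads cannot be separated in these values.

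Of 38 neuropeptide precursor genes, 4 passed the minimum, and 3 of them were at least 2-fold higher in GFP-positive cells. Nts itself, on whose reporter the cells were sorted, is among these 3, beside Gcg and Tac1. Gcg, the precursor of glucagon and the glucagon-like peptides (chromosome 2, 62474530 to 62483650), was at 56.9 FPKM in GFP-positive and 6.74 FPKM in GFP-negative cells, a log2 difference of 2.90. Tac1, the precursor of substance P, was at 15.97 and 0.711 FPKM (3.31). Npy, by contrast, was at 14.2 and 14.1 FPKM. Nts thus stood at a level far above every other peptide precursor measured here, since the remaining 33 with a row of their own were under 5 FPKM in both libraries. Among these were Cck at 4.73 and 0.230 FPKM and Gal at 2.24 FPKM in GFP-positive cells and listed at 0 in GFP-negative cells. In bulk libraries such as these, fewer cells of a type and less RNA per cell cannot be told apart, here and in every comparison that follows.

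Genes of the granules that hold peptides were more often higher than lower. Of 13 members, 7 were at least 2-fold higher, 1 was lower, and the median log2 difference was 1.23. Scg2, a granin that helps form dense-core granules, was at 40.5 FPKM in GFP-positive and 2.30 FPKM in GFP-negative cells (log2 difference 3.65). Vgf, a precursor of several secreted peptides, was at 15.2 and 1.75 FPKM (2.56). Pcsk1n, an inhibitor of the convertase PC1, was at 15.8 and 3.94 FPKM (1.76). The general components differed little. Carboxypeptidase E (Cpe), which trims peptide ends, was at 69.4 and 60.6 FPKM, and Scg5, the chaperone of the convertase PC2, at 38.4 and 35.1 FPKM. Cadps2, a priming factor for granule release, went the other way, at 1.20 and 7.81 FPKM (-2.0), while its relative Cadps was at 35.5 and 12.7 FPKM (1.42).

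Most neuropeptide receptor genes were low in both libraries. Of 29 receptor genes 3 passed the minimum, of which 1 was at least 2-fold lower and 2 were within 2-fold. Sstr2, a somatostatin receptor, was at 0.879 FPKM in GFP-positive and 26.3 FPKM in GFP-negative cells (log2 difference -3.86). Adcyap1r1 was at 20.35 and 28.1 FPKM (-0.45), and Oprl1 at 12.7 and 5.95 FPKM (0.98). The neurotensin receptor genes Ntsr1 (1.59 and 1.34 FPKM) and Ntsr2 (0.0846 FPKM and listed at 0) were under the minimum. The receptor for glucagon-like peptide 1, Glp1r, was listed at 0 in GFP-positive and at 0.0864 FPKM in GFP-negative cells.

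**Figure D2:**
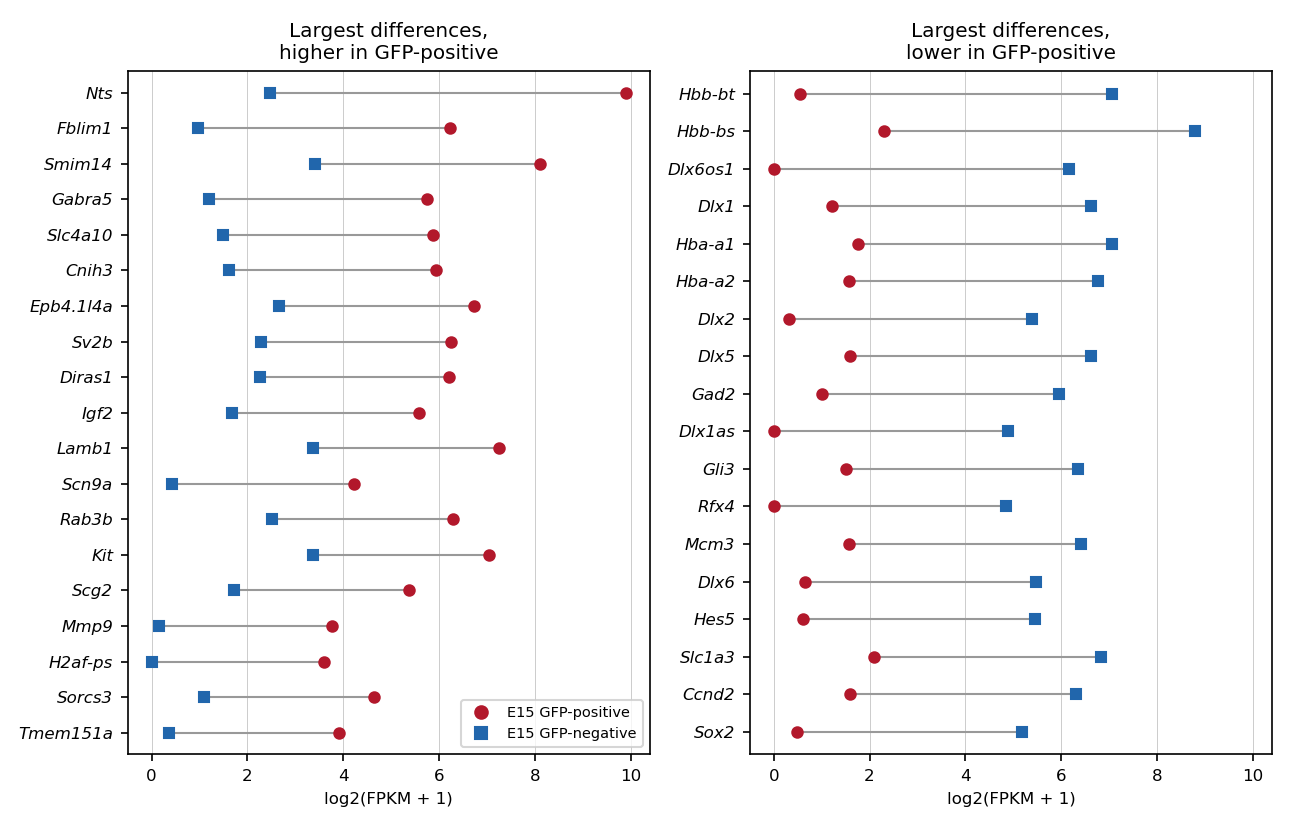
Levels as log2(FPKM + 1) of genes with the largest log2 differences in each direction at E15, in the GFP-positive library (red circles) and the GFP-negative library (blue squares), 1 library each. Nts reaches 955 FPKM on the left, and on the right the higher row of Dlx6os1, Dlx1as and Rfx4 are listed at 0 in GFP-positive cells.

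Genes of mitral and tufted cells were mostly higher in GFP-positive cells. Of 11 members of that list 7 were at least 2-fold higher and 0 lower, with a median log2 difference of 1.48. The other 4 were within 2-fold, the lowest of them at -0.63. Tfap2e, which encodes the transcription factor AP-2 epsilon of the olfactory bulb, was at 95.5 FPKM in GFP-positive and 8.85 FPKM in GFP-negative cells (3.29). Reln, the extracellular guidance protein reelin, was at 55.0 and 6.85 FPKM (2.83). Cdhr1, a cadherin of mitral and tufted cells, was at 6.68 and 0.269 FPKM (2.60), a low level in both. Barhl2, a homeobox factor, was at 82.9 and 29.1 FPKM (1.48), and Slc17a6, the vesicular glutamate transporter VGLUT2, at 41.9 and 17.2 FPKM (1.24). Tbx21, a T-box factor used as a marker of mature mitral and tufted cells, was under the minimum at 0.448 and 0.241 FPKM.

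The GFP-negative library held much RNA of glutamatergic neurons as well. Neurod6, a bHLH factor of glutamatergic neurons (chromosome 6, 55677822 to 55681263), was at 451 FPKM in GFP-positive and 196 FPKM in GFP-negative cells, a log2 difference of 1.20. Tbr1, a T-box factor of projection neurons, was at 340.1 and 121 FPKM (1.49). Eomes, which encodes the T-box factor TBR2 and marks intermediate progenitors as well as mitral and tufted cells, was at 149 and 82.8 FPKM (0.84, under 2-fold). Labelled cells thus had more of these transcripts, but the GFP-negative library was far from lacking them.

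Among bHLH factors, several of progenitors and newborn neurons were lower in GFP-positive cells. Of 10 members, 1 was at least 2-fold higher, 5 were lower, and the median log2 difference was -1.36. Neurog1 and Neurod4, used in progenitors and newborn neurons, were listed at 0 in GFP-positive cells, against 12.4 and 5.44 FPKM in the GFP-negative library. Neurog2, a proneural factor of glutamatergic lineages, was at 13.8 FPKM in GFP-positive and 57.9 FPKM in GFP-negative cells (-2.0), and Nhlh1 at 8.24 and 31.3 FPKM (-1.81). Neurod2, which acts in differentiating neurons, was at 134 and 71.2 FPKM (0.90), on the same side as Neurod6.

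**Figure D3:**
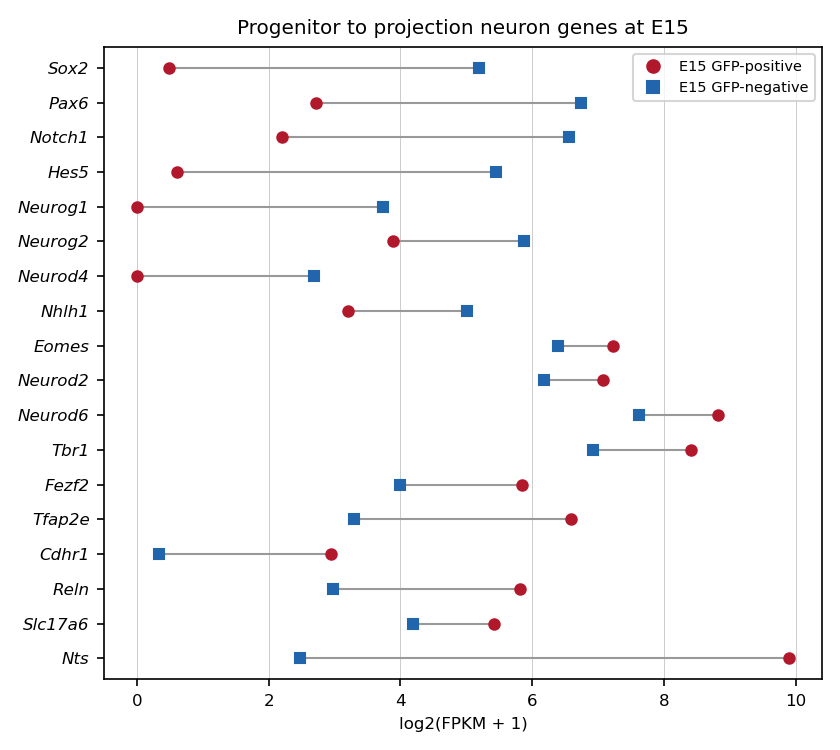
Levels as log2(FPKM + 1) in the E15 GFP-positive library (red circles) and GFP-negative library (blue squares), 1 library each, for genes of progenitors at the top and of projection neurons toward the bottom. From Sox2 to Nhlh1 the GFP-negative level is the higher, and from Eomes to Nts the GFP-positive level is. The genes and their order were picked by hand, and the cells were sorted on the reporter of Nts. Among genes not shown, Emx2 of progenitors and Sox5, Foxp2 and Lmo3 of projection neurons lie on the opposite side, and they are not the only ones. Of the 21 cortical projection neuron factors 7 were at least 2-fold lower and 6 higher (median log2 difference -0.32). The lowest mitral and tufted cell member was at -0.63.

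Transcription factors of cortical projection neurons lay on both sides. Of 21 members 6 were at least 2-fold higher, 7 were lower, and the median log2 difference was -0.32. Pou3f1, a POU factor, was at 92.8 FPKM in GFP-positive and 12.1 FPKM in GFP-negative cells (2.84). Fezf2 (56.4 and 14.9 FPKM, 1.85) and Bcl11b (148 and 49.1 FPKM, 1.58), factors of subcerebral projection neurons in the cortex, were also higher. Others of the deep cortical layers were lower. Sox5 was at 3.57 and 33.3 FPKM (-2.91) and Foxp2 at 5.75 and 42.8 FPKM (-2.70). Lmo3 was at 1.79 and 17.7 FPKM (-2.75). Nuclear factor I genes split, with Nfix higher (105 and 31.2 FPKM, 1.72) and Nfia lower (57.6 and 217 FPKM, -1.90). Of 6 olfactory bulb and rostral markers 1 was at least 2-fold higher and 5 lower (median log2 difference -1.65). The higher one, Emx1, a factor of the dorsal telencephalon, was at 34.3 and 10.3 FPKM (1.64), whereas Otx1 was at 1.05 and 41.8 FPKM (-4.38).

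Receptors for glutamate and GABA were mostly higher in GFP-positive cells. Of 9 GABA and glycine receptor genes 7 were at least 2-fold higher and 0 lower, with a median log2 difference of 1.23. Gabra5 (chromosome 7, 57407672 to 57510059, minus strand) encodes the alpha-5 subunit of the GABA-A receptor and was at 52.5 FPKM in GFP-positive and 1.31 FPKM in GFP-negative cells (4.54). Gabra2 was at 8.05 and 0.705 FPKM (2.41). Gphn, which encodes the scaffold protein gephyrin of inhibitory synapses, was at 31.1 and 13.7 FPKM (1.13).

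Among 11 glutamate receptor and auxiliary genes, 6 were at least 2-fold higher and 2 lower, with a median log2 difference of 1.12. Cnih3, an auxiliary protein of AMPA receptors, was at 60.5 FPKM in GFP-positive and 2.06 FPKM in GFP-negative cells (4.33). Grin1, the obligatory subunit of NMDA receptors, was at 17.2 and 4.56 FPKM (1.71). The 2 exceptions were Grik3, a kainate receptor subunit, at 4.05 and 34.3 FPKM (-2.80), and the AMPA receptor subunit Gria1 at 7.69 and 18.3 FPKM (-1.15). Another 6 genes of that list, Gria2 and Gria3 among them, had no row of their own.

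Ion channel genes were also on the GFP-positive side. Of 18 sodium and calcium channel genes 12 were at least 2-fold higher and 0 lower (median log2 difference 1.33). Scn9a, the sodium channel Nav1.7, which was not on that list, was at 17.6 FPKM in GFP-positive and 0.347 FPKM in GFP-negative cells (3.79). Cacna1e, the R-type calcium channel, was at 52.8 and 4.15 FPKM (3.38), and Cacnb2, an auxiliary calcium channel subunit, at 67.3 and 9.25 FPKM (2.74). Potassium and HCN channel genes were less uniform, with 14 of 22 higher and 3 lower (median 1.28). Kcnj6, a G protein-gated inward rectifier, was at 22.8 and 1.15 FPKM (3.47). Kcnip2, an auxiliary protein of Kv4 channels, was at 24.0 and 2.21 FPKM (2.96), while Kcnd3, a Kv4 channel itself, was at 19.2 and 46.6 FPKM (-1.24). Bicarbonate transporters of the same family lay on opposite sides. Slc4a10, a neuronal sodium-coupled transporter, was at 57.3 and 1.82 FPKM (4.37), and Slc4a4, better known from glia, was at 0.662 and 8.10 FPKM (-2.45).

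Synaptic vesicle and release genes had 16 of 24 members at least 2-fold higher and 0 lower, with a median log2 difference of 1.40. Sv2b, a vesicle glycoprotein, was at 74.6 FPKM in GFP-positive and 3.84 FPKM in GFP-negative cells (3.97), and its paralog Sv2a was at 23.6 and 9.22 FPKM (1.27). Syt1, the calcium sensor of fast release, was at 121 and 18.7 FPKM (2.63), and Snap25, a SNARE protein, at 224 and 57.9 FPKM (1.93). Rab3b, a GTPase of secretory vesicles outside that list, was at 77.0 and 4.68 FPKM (3.78). Complexin genes differed in size of difference, with Cplx1 at 33.9 and 7.94 FPKM (1.96) and Cplx2 at 31.1 and 23.5 FPKM (0.39).

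Neurite and axon genes were among the most abundant on the GFP-positive side. Of 22 cytoskeleton and growth members 15 were at least 2-fold higher and 0 lower (median log2 difference 1.61). Mapt, whose reads cannot be separated from those of the reporter, is among the 15. Tuba1a, an alpha-tubulin of developing neurons, was at 3354 FPKM in GFP-positive and 1027 FPKM in GFP-negative cells (1.71). Stmn2, a regulator of microtubules in growing axons, was at 1097 and 268 FPKM (2.03). Gap43, a growth cone protein, was at 363 and 56.1 FPKM (2.67), and Ina, the neurofilament protein alpha-internexin, at 461 and 66.0 FPKM (2.79). Neurofilament light chain (Nefl), which accumulates in mature axons, was under the minimum at 4.72 and 0.243 FPKM. Map2 of dendrites was at 640.0 and 344 FPKM (0.89).

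Guidance genes lay on both sides. Of 23 ligands 6 were at least 2-fold higher and 4 lower (median log2 difference 0.67), beside 12.5% and 14.5% of all rows. Rgmb, a repulsive guidance molecule, was at 115 FPKM in GFP-positive and 22.0 FPKM in GFP-negative cells (2.34), and Sema3f, a secreted semaphorin, at 21.4 and 4.25 FPKM (2.09). Its receptor subunit Nrp2 was higher too, at 92.3 and 19.5 FPKM (2.19). Draxin, a secreted repellent, was at 50.9 and 12.2 FPKM (1.98).

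Of 25 guidance receptor and axonal adhesion genes, 10 were at least 2-fold higher and 7 lower, and the median log2 difference was -0.12. Cntn2, the axonal adhesion protein TAG-1, was at 385 FPKM in GFP-positive and 50.2 FPKM in GFP-negative cells (2.91). Epha3 was at 46.7 and 6.95 FPKM (2.59), while Epha4, also an ephrin receptor, was at 1.69 and 23.1 FPKM (-3.17). Netrin receptors divided in the same manner, with Unc5a at 31.5 and 7.55 FPKM (1.93) and Unc5c at 1.08 and 11.98 FPKM (-2.64). Plexins did as well, with Plxna3 at 39.1 and 14.9 FPKM (1.34) and Plxna4 at 1.93 and 28.1 FPKM (-3.31). The Slit receptors Robo1 (99.2 and 39.2 FPKM, 1.32) and Robo2 (431 and 221 FPKM, 0.96) were both on the GFP-positive side, as was the netrin receptor Dcc (244 and 107 FPKM, 1.18).

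Adhesion and matrix lists had medians near 0 and wide ranges. Lamb1, the laminin beta-1 chain (chromosome 12, 31265234 to 31329644), was at 150.2 FPKM in GFP-positive and 9.39 FPKM in GFP-negative cells (log2 difference 3.86), and Lamb2, the beta-2 chain, at 0.420 and 12.8 FPKM (-3.28). Lamc1, the gamma-1 chain found in most laminins, differed little (22.8 and 16.8 FPKM, 0.42). Itga6, a laminin-binding integrin subunit, was at 2.27 and 34.6 FPKM (-3.44). Over the 16 matrix and integrin members, 4 were at least 2-fold higher and 6 lower (median 0.06). Among 23 cadherins and protocadherins 5 were higher and 6 lower (median -0.13). Cdh11 was at 43.6 and 9.67 FPKM (2.06) and Pcdh17 at 11.8 and 1.88 FPKM (2.15), whereas the giant cadherin Fat1 was at 2.91 and 87.3 FPKM (-4.50) and Celsr1, a planar polarity cadherin, at 0.272 and 16.1 FPKM (-3.75).

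Growth factor genes gave a few large differences. Kit, a receptor tyrosine kinase, was at 131 FPKM in GFP-positive and 9.33 FPKM in GFP-negative cells (log2 difference 3.68), whereas its ligand gene Kitl was at 40.8 and 32.7 FPKM (0.31). Igf1, insulin-like growth factor 1, was at 38.5 and 10.5 FPKM (1.78), and Igf2 at 46.5 and 2.22 FPKM (3.88). Erbb4, a neuregulin receptor of interneurons and their progenitors, was at 0.840 and 18.3 FPKM (-3.39). Of 11 members of the growth factor and receptor list 3 were at least 2-fold higher and 1, Erbb4, was lower (median 0.19). The 3 were Kit, Igf1 and the binding protein gene Igfbp5, so Kit was the only receptor gene among them. Fblim1, which encodes the actin-linked adaptor migfilin (chromosome 4, 141576062 to 141606096, minus strand), had 73.6 and 0.954 FPKM (5.26), next to Nts in size of difference. Mmp9, a matrix metalloproteinase, was at 12.5 and 0.119 FPKM (3.60).

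Interneuron genes were lower in GFP-positive cells almost throughout. Of 19 GABAergic interneuron members 15 were at least 2-fold lower, with a median log2 difference of -3.01. Dlx1, a homeobox factor of interneuron progenitors, was at 1.32 FPKM in GFP-positive and 96.7 FPKM in GFP-negative cells (-5.40), and its neighbour Dlx2 was at 0.250 and 40.6 FPKM (-5.06). Dlx5 was at 2.03 and 97.5 FPKM (-5.02) and Dlx6 at 0.568 and 43.7 FPKM (-4.83). Noncoding transcripts of both Dlx loci were low too. Dlx1as was listed at 0 in GFP-positive cells against 28.7 FPKM in GFP-negative cells, and of 2 rows named Dlx6os1 the higher was listed at 0 against 70.2 FPKM and the other was at 0.325 and 31.7 FPKM (-4.63). Reads of a gene and its antisense partner may not be separable here. Gad2, an enzyme that makes GABA, was at 1.004 and 60.6 FPKM (-4.94).

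A few genes on the interneuron list stood apart. Calb2, which encodes calretinin and is used by bulb interneurons, was the only member at least 2-fold higher, at 86.9 FPKM in GFP-positive and 11.2 FPKM in GFP-negative cells (2.85). It is also a Cajal-Retzius cell gene, and 3 of 6 members of that list were higher (Calb2, Reln and Cdkn1a), while 1, the chemokine receptor Cxcr4, was lower at 0.652 and 9.21 FPKM (-2.63). Trp73, a defining Cajal-Retzius factor, was under the minimum at 4.42 and 2.09 FPKM. The summed level of the list was 188 FPKM in GFP-positive and 50.7 FPKM in GFP-negative cells. In GFP-positive cells most of the sum came from Calb2 (86.9 FPKM) and Reln (55.0 FPKM). Calb2 is also on the interneuron list and Reln on the mitral and tufted cell list. The part of Cajal-Retzius genes in the other results was not tested. Tshz1 (56.4 and 32.9 FPKM, 0.76), Zic1 (272 and 312 FPKM, -0.20) and Etv1 (98.6 and 116 FPKM, -0.23) differed by less than 2-fold.

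**Figure D4:**
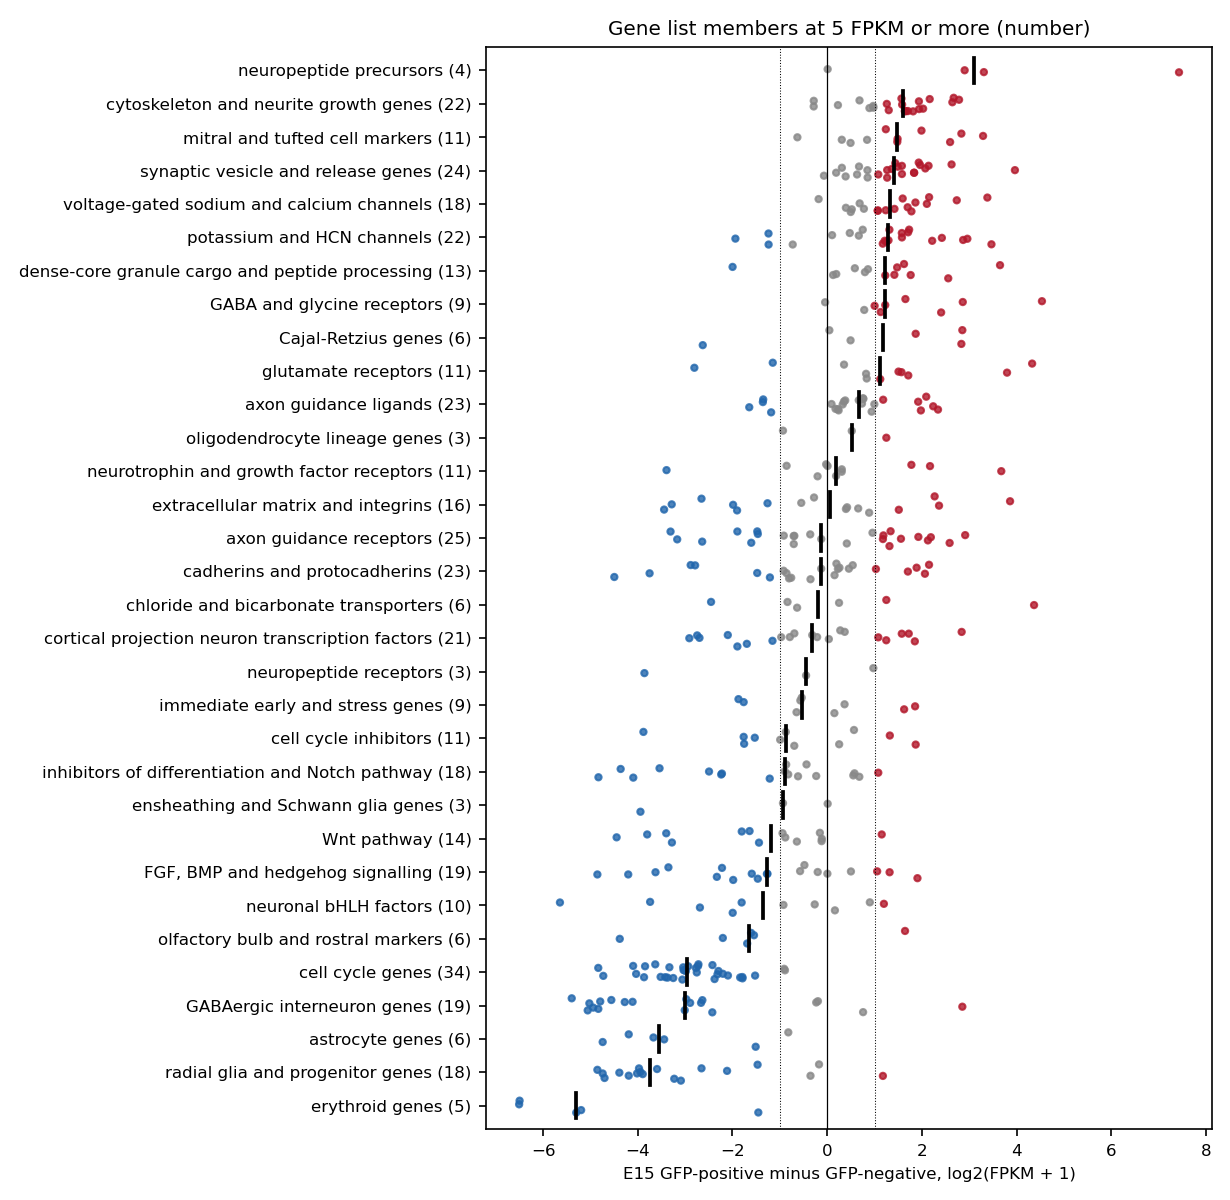
Log2 difference between the E15 GFP-positive and GFP-negative libraries for each member of the 32 gene lists with at least 3 members, 1 point per gene and a black bar at the list's median; dotted lines mark 2-fold. Medians run from 3.11 for neuropeptide precursors to -5.30 for erythroid genes, and the guidance receptor, cadherin and matrix lists spread to both sides of 0. The precursor list includes Nts, on whose reporter the cells were sorted. The cytoskeleton list includes Mapt, whose reads cannot be separated from those of the reporter.

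Genes of radial glia and of progenitors were likewise lower. Of 18 members 15 were at least 2-fold lower and 1 higher, with a median log2 difference of -3.74. Gli3, a transcription factor of hedgehog signalling, was at 1.84 FPKM in GFP-positive and 81.0 FPKM in GFP-negative cells (-4.85), and Slc1a3, the glial glutamate transporter GLAST, at 3.27 and 113 FPKM (-4.74). Sox2, a factor that keeps neural progenitors undifferentiated, was at 0.403 and 35.5 FPKM (-4.70), and Pax6 at 5.61 and 106 FPKM (-4.02). Rfx4, a transcription factor outside that list, was listed at 0 in GFP-positive cells and at 27.8 FPKM in GFP-negative cells. The most abundant of these genes was Fabp7, the fatty acid binding protein of radial glia, at 183 and 2825 FPKM (-3.94), so a sizeable level remained in GFP-positive cells. Emx2, a factor of dorsal progenitors, was the exception at 34.8 and 14.8 FPKM (1.18), and Lhx2 differed little (146 and 165 FPKM, -0.17).

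In the Notch pathway, receptors and most measured targets were lower in GFP-positive cells, while ligand genes differed by less than 2-fold. Of 18 members of the Notch and Id list 8 were at least 2-fold lower and 1 higher (median log2 difference -0.88). The receptor gene Notch1 was at 3.58 FPKM in GFP-positive and 93.2 FPKM in GFP-negative cells (-4.36), and its target Hes5, whose promoter is shown above, at 0.532 and 42.6 FPKM (-4.83). Mfng, a glycosyltransferase that modifies Notch, was at 1.09 and 34.8 FPKM (-4.09). Notch2 (1.60 and 11.3 FPKM, -2.24) and the targets Hes1 (2.52 and 7.16 FPKM, -1.21) and Hey1 (0.614 and 8.10 FPKM, -2.49) were lower as well, but the target Heyl was at 7.12 and 4.44 FPKM (0.58). The ligand gene Dll1 was at 32.3 and 19.8 FPKM (0.68), and Jag1 at 8.91 and 10.6 FPKM (-0.23). Rbpj, the DNA-binding partner, differed little (8.47 and 11.8 FPKM, -0.44). The inhibitors of differentiation also split, with Id4 at 2.18 and 36.1 FPKM (-3.54) and Id2 at 148 and 69.6 FPKM (1.08).

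Of 34 cell cycle members 32 were at least 2-fold lower and 0 higher, with a median log2 difference of -2.96. Mcm3, a subunit of the replicative helicase, was at 1.99 FPKM in GFP-positive and 84.4 FPKM in GFP-negative cells (-4.83). The D-type cyclins that drive entry into the cycle were lower as well, with Ccnd2 at 2.003 and 78.6 FPKM (-4.73) and Ccnd1 at 4.16 and 87.4 FPKM (-4.10). Mki67, the proliferation antigen Ki-67, was at 5.23 and 88.6 FPKM (-3.85). The 2 members under 2-fold were Bub1b, a spindle checkpoint kinase, at 17.8 and 33.9 FPKM (-0.89) and the cyclin gene Ccne1 at 2.41 and 5.40 FPKM (-0.91). Among 11 cycle inhibitors 2 were higher and 4 lower, beside 12.5% and 14.5% of all rows. Cdkn1a was at 14.5 and 3.24 FPKM (1.87) and Cdkn1c at 17.3 and 6.33 FPKM (1.32), while Cdkn2c was at 0.200 and 16.7 FPKM (-3.88).

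Signalling pathways that pattern the telencephalon were lower for the most part. Of 14 Wnt members 7 were at least 2-fold lower and 1 higher (median log2 difference -1.19). Tcf7l2, a transcription factor of Wnt signalling, was at 0.588 FPKM in GFP-positive and 33.6 FPKM in GFP-negative cells (-4.45), and Sfrp1, a secreted Wnt antagonist, at 17.7 and 196 FPKM (-3.40). The member that was higher, Fzd1, a Wnt receptor, was at 25.4 and 10.9 FPKM (1.15). Of 19 FGF, BMP and hedgehog members 11 were lower and 3 higher (median -1.27). Fgf15 was at 1.09 and 20.3 FPKM (-3.35), whereas Fgf9 was at 8.70 and 1.59 FPKM (1.91) and the intracellular Fgf13 at 140.2 and 66.9 FPKM (1.06). Gli2 was at 0.852 and 33.1 FPKM (-4.20) and the hedgehog co-receptor Gas1 at 0.535 and 18.0 FPKM (-3.63).

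Genes of other cell types differed between the libraries in both directions. All 5 erythroid members were at least 2-fold lower, and the most abundant was Hbb-bs, an adult beta-globin, at 3.93 FPKM in GFP-positive and 444 FPKM in GFP-negative cells (log2 difference -6.50). The near-identical globin copies may share reads. The 11 listed erythroid genes summed to 11.3 and 827 FPKM, with 6 at 0 in GFP-positive and 3 at 0 in GFP-negative cells. Astrocyte genes had 5 of 6 members lower (median -3.56). Aldoc, an aldolase, was at 7.72 and 109.9 FPKM (-3.67), and Mlc1 was listed at 0 in GFP-positive and at 9.87 FPKM in GFP-negative cells. Gfap, which defines mature astrocytes, was at 0 and 0.0549 FPKM.

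Vessel-wall and immune genes were low, and some were on the GFP-positive side. Rgs5, a pericyte gene, was at 27.4 FPKM in GFP-positive and 2.35 FPKM in GFP-negative cells (log2 difference 3.08). Other genes of pericytes, Abcc9 (3.59 and 0.141 FPKM) and Kcnj8 (2.06 and 0.111 FPKM), lay under the minimum with the higher level in the same library. Myl9, of smooth muscle, was at 3.13 and 13.6 FPKM (-1.82). The 14 mural and fibroblast genes summed to 55.1 FPKM in GFP-positive and 25.8 FPKM in GFP-negative cells, with 0 and 3 of them at 0. None of 14 microglia genes reached 5 FPKM, yet C1qb was at 3.60 FPKM and Laptm5 at 3.51 FPKM in GFP-positive cells and both were listed at 0 in GFP-negative cells. The microglia list summed to 13.9 and 3.04 FPKM, with 5 and 12 genes at 0, among them the defining Cx3cr1 and Aif1 in both libraries. The 11 endothelial genes with a row summed to 1.84 and 7.90 FPKM, with the defining Cldn5 at 0 in both. The part of these cells in the results above was not tested.

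Remaining glial and sensory lists gave small counts. The oligodendrocyte list had 1 of 3 members higher, Mbp, a myelin gene also made in other cells, at 9.85 and 3.56 FPKM (log2 difference 1.25, or 0.79 with a pseudocount of 5 FPKM), while the defining factor Olig2 was at 0 and 0.642 FPKM. The ensheathing glia list had 1 of 3 members lower, which was Fabp7. The lists of 11 ensheathing and 11 astrocyte genes share members with radial glia. The olfactory sensory neuron list had 1 member, Gnal, a G protein subunit also used in the forebrain, at 14.7 and 7.33 FPKM (0.91). Of 9 immediate early and stress genes 2 were higher and 2 lower, beside 12.5% and 14.5% of all rows. Dusp1, a phosphatase induced by stress and activity, was at 128 and 40.8 FPKM (1.63), Fos at 5.70 and 8.92 FPKM (-0.57), and the nuclear receptor gene Nr4a1 at 2.40 and 11.5 FPKM (-1.87).

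The E15 differences were then set beside those of the same rows at E13, E17 and P0, where each age had its own GFP-positive and GFP-negative library. Of the 1314 rows higher at E15, 674 were also at least 2-fold higher at E13 (51.3% of the E15 rows and 49.2% of the 1370 E13 rows, 13.1% of all rows), 575 at E17 (43.8% and 49.8% of 1155, 11.0% of all rows) and 488 at P0 (37.1% and 52.5% of 929, 8.87% of all rows). At all 3 other ages 246 were higher (18.7% of the E15 rows and 90.4% of the 272 such rows, which are 2.60% of all rows), and 359 were at none (27.3%). Of the 1520 rows lower at E15, 1000 were also lower at E13 (65.8% and 56.9% of 1756, 16.8% of all rows), 741 at E17 (48.8% and 57.9% of 1279, 12.2% of all rows) and 502 at P0 (33.0% and 55.2% of 909, 8.67% of all rows). At all 3 other ages 312 were lower (20.5% of the E15 rows and 92.3% of the 338 such rows, 3.23% of all rows), and 306 were at none (20.1%). Of the 20 genes with the largest differences each way, 16 of those higher and 19 of those lower were at least 2-fold different in the same direction at all 3 other ages.

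Gene list medians were set side by side for the 4 ages. Over the E15 members, cell cycle genes had median log2 differences of -4.08, -2.96, -2.16 and -1.02 at E13, E15, E17 and P0, and radial glia genes of -4.59, -3.74, -1.90 and -1.01. E15 lay second in size for both. Interneuron genes were at -3.04, -3.01, -4.70 and -4.54, so the E15 median was close to that of E13. Synaptic vesicle genes were at 1.63, 1.40, 0.67 and 0.45, and mitral and tufted cell genes at 0.56, 1.48, 2.04 and 2.50. These members were chosen for their level at E15, not for their level at the other ages.

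Some members differed in their course. Gcg was at 10.2 FPKM in GFP-positive and 5.05 FPKM in GFP-negative cells at E13 (log2 difference 0.89), against 56.9 and 6.74 FPKM at E15. Igf2 was under 1 FPKM in both libraries at E13 (0.236 and 0.381 FPKM), against 46.5 and 2.22 FPKM at E15 and 144 and 18.4 FPKM at P0. Rgs5 likewise was at 0.108 and 0.812 FPKM at E13, 27.4 and 2.35 FPKM at E15 and 86.2 and 2.98 FPKM at P0. Reln and Cdhr1 went the other way within GFP-positive cells, from 349 to 55.0 FPKM and from 75.4 to 6.68 FPKM between E13 and E15. H2af-ps, a histone pseudogene, was at 11.0 FPKM in GFP-positive and listed at 0 in GFP-negative cells at E15, but at 1.02 and 16.8 FPKM at E13. At E17 (4.62 and 1.76 FPKM) and P0 (5.38 FPKM and listed at 0) its level was higher in GFP-positive cells, as at E15.

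Whether any E15 difference stood apart from the mean of the other 3 ages was tested with limma on the 4 per-age differences. Of 15000 rows with a mean of at least 1 FPKM, 0 (0%) passed an adjusted p of 0.05, while 356 had an unadjusted p under 0.05 and the smallest adjusted p was 0.214. The rows under the unadjusted cut were a smaller share than the 0.05 that would fall there if no row differed. The fit had 2 residual degrees of freedom and assumed that the single E15 pair varies like the others. Its error comes from the spread over E13, E17 and P0, so a course with age enters it, as for Gli3 with log2 differences of -6.36, -2.20 and -0.68 at those ages (SE 2.45). The count of 0 therefore does not show that the E15 differences were like those of the other ages. Without a filter on low values, 78 of 23642 rows passed, 29 higher and 49 lower.

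The genes below were among those with the smallest p in rows kept by the naming rule, with at least 5 FPKM in the higher E15 library. None of them passed, and smaller p were found outside these rows. Smim14, which encodes a small membrane protein (chromosome 5, 65446844 to 65537184), had GFP-positive levels of 17.6, 274, 26.6 and 30.2 FPKM from E13 to P0, beside GFP-negative levels of 5.36, 9.67, 26.1 and 21.2 FPKM. Its high value was that of the E15 GFP-positive library alone (E15 minus the other ages 3.998 ± 0.72 SE in log2 units, limma adjusted p = 0.769). Snhg9, a noncoding RNA that hosts small nucleolar RNAs, was instead low in the E15 GFP-negative library, at 5.72 FPKM against 22.4, 28.2 and 67.7 FPKM in those of the other ages (2.83 ± 0.42 SE, limma adjusted p = 0.458). Fat1 was lower in GFP-positive cells at all 4 ages, with log2 differences of -2.52, -4.50, -2.62 and -2.46 (-1.96 ± 0.35 SE, limma adjusted p = 0.769). Hps5, which takes part in making lysosome-related organelles, was at 8.48 and 29.0 FPKM at E15 (log2 difference -1.66) and had differences of 0.91, 0.76 and 1.16 at the other ages (-2.61 ± 0.39 SE, limma adjusted p = 0.458). Recql, a DNA helicase, had a log2 difference of -1.95 at E15, against 0.15, 0.83 and 0.59 at E13, E17 and P0.

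**Figure D5:**
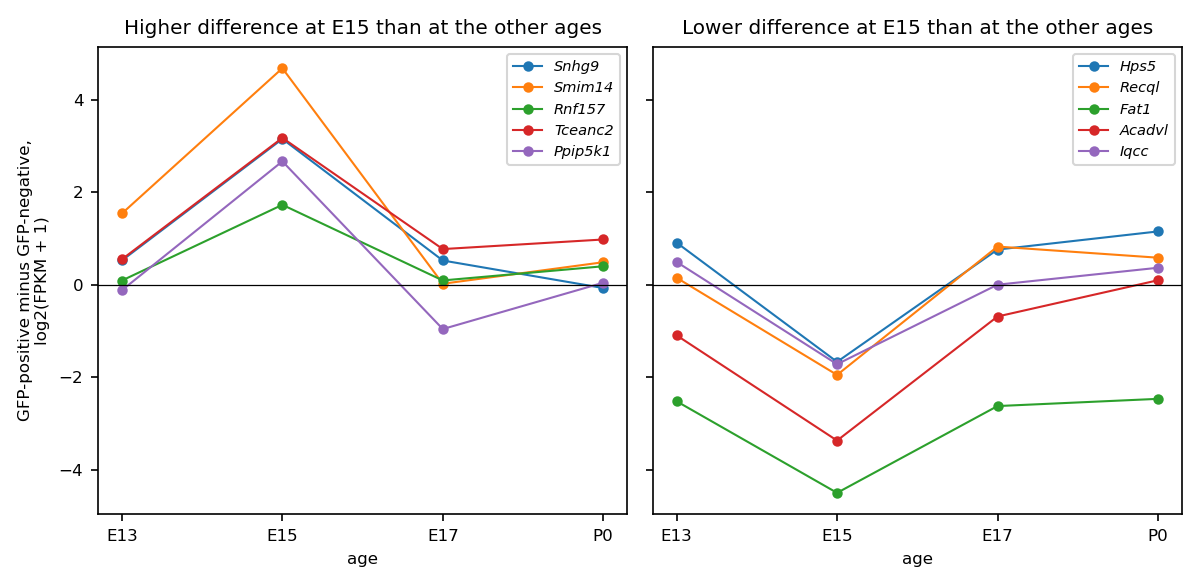
Log2 difference between the GFP-positive and GFP-negative libraries at E13, E15, E17 and P0, 1 pair of libraries per age, for the 5 genes in each direction with the smallest limma p for E15 against the other ages (0 passed adjustment). Only rows kept by the naming rule, with at least 5 FPKM in the higher E15 library, were ranked. Smim14 reaches 4.69 at E15, and Fat1 lies below 0 at every age.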

How the data were processed

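Gene levels were taken from the table the authors deposited, whose values are FPKM per gene (single-end reads of 50 cycles, per the labels' protocols). The submitters' processing notes name the mouse build mm10, Cufflinks 2.2.1, TopHat2 2.0.9 and CASAVA 1.8.2; the sources used here give no annotation, strand setting or read filter. Since the source field reads GFP+ for all 8 samples, populations follow the titles and the cell population field. The authors set 14 further rows apart (Dcx and Malat1 among them), which were not used.

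From these values the log2 difference with a pseudocount of 1 FPKM was computed for rows with at least 5 FPKM in the higher E15 library. It understates differences of low genes. Of the rows described, 553 name several overlapping genes, and list genes found only in such rows were left out. The E15 pair has no replicate and no test. The E15 difference was compared with the other ages by limma 3.58.1 in R 4.3.3 (mean-variance trend, 2-sided, Benjamini-Hochberg over all 15000 rows kept). A p-value then measures the departure of single libraries. The test was also run on simulated data with noise drawn from the fit itself. Such data check neither a course with age nor the assumption that the E15 pair varies like the others. Other values were computed in Python 3.11.15 with pandas 2.3.3. For depth, 74.6% and 73.7% of low values lay within 0.1 read of a whole number of reads (20% if spread evenly). The scale was chosen to make this share large, so the share does not check it. Positions are from GENCODE M21 (GRCm38, the assembly of mm10) by symbol, for 148 of 151 named rows, and promoters from RefSeq.

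Genes were named by rule: Nts, Neurod6, Gcg and Mapt, the 20 largest differences each way, the 10 highest levels in each library, 4 members of each list and the 5 smallest p each way. Predicted and clone-named, mitochondrial and Y-linked genes and Xist were left out, as were rows under 5 FPKM in both E15 libraries. A few genes that this rule takes are not reported here. Other list members were named after their values were seen. The members and lists were chosen with earlier results of these data known. Alternatives covered the pseudocount, filter, scaling, rows counted, fold, variance model and ages.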

Additional observations from a re-analysis of the deposited data

How the results depend on the processing

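Of 45 alternative values computed for the counts at E15, the gene list medians and the test against the other ages, 37 were within 1.5 times the reported value and 8 were not. The 37 include fits of the test against the other ages that gave 0 rows, as reported. These were counted as unchanged although no ratio to 0 exists. With a pseudocount of 5 FPKM, 834 rows were at least 2-fold higher in GFP-positive cells. With a minimum of 20 FPKM, 719 were higher and 617 lower, so the excess of lower rows was not kept. With a minimum of 1 FPKM or none, 2458 were lower. At 4-fold, 393 were higher and 776 lower. Quantile normalization gave 1442 higher and 1370 lower, against 1314 and 1520 as reported. The number of gene lists with a median above 0 was 14 of 32 and lay between 14 and 17 under the alternatives. None of the 151 rows taken by the naming rule reversed direction under either other pseudocount, median-of-ratios scaling or quantile normalization; other genes in the text were not run. Among those that moved across 2-fold were Oprl1 with a pseudocount of 0.1 FPKM, Ier3, Mbp, Prok2 and Slc4a8 with 5 FPKM, and Oprl1 and Gnal under quantile normalization. Leaving out all short noncoding RNA rows (1211 higher, 1356 lower) or keeping only genes named under the naming rule (984 and 1063) was added after the data were seen.

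For E15 against the other ages, 78 rows passed with no filter on low values and 0 under every other alternative, where leaving out E13, E17 or P0 in turn gave 863, 323 and 357 rows with an unadjusted p under 0.05 (limma). The smallest adjusted p lay between 0.0484 with no filter and 0.522 without P0. Among the fits that left out an age, only that without E13 put more than a share of 0.05 of its rows under the unadjusted cut. The test pairs libraries by age, and no fit with a replicate block could be made, since each group has 1 library. With 1 library a side, the error of an E15 difference is unknown, and low values rest on few reads.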
